A study of Mus musculus with 2 samples.

Results

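Secreted Wnt antagonists are extracellular proteins that limit Wnt signaling before it reaches the inside of a cell. The genes described here are those of the Dkk family (Dkk1, Dkk2 and Dkk3), the secreted Frizzled-related family (Sfrp1, Sfrp2, Sfrp4, Sfrp5 and Frzb), Wif1 and Sost. They were taken by gene symbol from the deposited table, which lists each of the 10 exactly once among its 37309 genes. Dkk1, Dkk2 and sclerostin, the product of Sost, bind the Wnt co-receptors LRP5 and LRP6, and Kremen proteins act with Dkk1 and Dkk2 at the cell surface. The Frizzled-related proteins carry a cysteine-rich domain like that of the Frizzled receptors and bind Wnt proteins, as does WIF1 through a domain of its own. Dkk3 is a divergent member of its family, and its part in Wnt signaling is less clear than that of Dkk1. In the small intestine, Wnt signals from cells beneath the epithelium sustain the stem cells of the crypt base, so antagonists made by the same cells belong to the environment in which those signals act.

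RNA sequencing was performed on cultured intestinal subepithelial myofibroblasts (ISEMFs) from the small intestine of C57BL/6 mice. The supportive ISEMFs came from neonatal mice, isolated at 5 days of age, and the non-supportive ISEMFs from adult mice, isolated at 2 months, with 1 library of each. The populations therefore differed in age as well as in their support of intestinal stem cells, and the effects of age, isolation and culture history cannot be told apart from that of the population. The number of culture passages is not given in the labels or methods, and the deposited names carry a different P code for each library, whose meaning is not stated. With 1 library per population no difference has a replicate check, no p-value is given, and every interval or standard error covers counting error only.

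The gene counts summed to 50674472 reads for supportive and 49615497 reads for non-supportive ISEMFs. Genes of the mitochondrial chromosome took 14.6% and 7.85% of these reads. The labelled cell type was checked against its markers, and Acta2 and Vim were abundant in both libraries, with RPKM values of 908 and 325 in supportive and 1410 and 407 in non-supportive ISEMFs. RPKM scales a gene's reads to exon length and sequencing depth. Of the 6 myofibroblast markers, 2 were higher and 4 lower in supportive ISEMFs, so the libraries did not match on all of them. Col1a2 was 6.88-fold higher in supportive ISEMFs, at an RPKM of 286 against 41.6, and Col1a1 was at 317 against 288. Pdgfra was 3.59-fold lower, at 3.37 against 12.1, and Tagln was at 206 against 360. Des, listed with the smooth muscle markers, was 5.92-fold lower in supportive ISEMFs. Of the epithelial markers, Epcam had 0 reads for supportive and 5 for non-supportive ISEMFs. All 6 macrophage markers were higher in the non-supportive library, where their summed RPKM was 119 against 6.86, and Tyrobp and Emr1 had 0 reads in the supportive library.

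Promoter sequences were available for 7 of the 10 genes and are shown for Dkk2 and Frzb, because these were detected well and differed between the libraries in opposite directions. Dkk3, Sfrp1 and Sfrp4 had no entry. Each sequence is the 250 bases before the RefSeq start in GRCm38.p6, written 5′ to 3′ in the direction of the gene, at chr3:132085042-132085291 on the plus strand for Dkk2 and chr2:80447397-80447646 on the minus strand for Frzb. Capitals mark matches, on either strand, to CTTTG, the core letters bound by the TCF/LEF factors of the Wnt pathway, and to TATAAA, the TATA box.
Dkk2: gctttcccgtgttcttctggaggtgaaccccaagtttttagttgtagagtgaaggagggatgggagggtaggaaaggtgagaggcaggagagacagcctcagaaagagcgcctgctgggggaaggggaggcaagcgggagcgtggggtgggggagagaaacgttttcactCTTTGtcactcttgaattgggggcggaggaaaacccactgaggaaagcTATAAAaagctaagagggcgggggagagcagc
Frzb: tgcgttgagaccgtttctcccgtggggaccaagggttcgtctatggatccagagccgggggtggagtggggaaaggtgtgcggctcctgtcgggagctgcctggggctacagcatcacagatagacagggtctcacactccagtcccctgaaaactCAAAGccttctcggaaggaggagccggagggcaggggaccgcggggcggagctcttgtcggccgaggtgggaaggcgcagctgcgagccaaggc

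In these windows the TATAAA of Dkk2 began 32 bases before the start and its CTTTG 80 bases before it, and Frzb held the reverse complement of CTTTG 94 bases before its start and no TATAAA. The window of Dkk2 had 7 CpG dinucleotides and a GC content of 55.6%, and that of Frzb had 16 and 64.4%. The medians over all 32851 promoter entries of the same length were 6 CpG dinucleotides and 52.4%. A CTTTG on either strand was in 48.6% of these entries and a TATAAA in 12.4%, and neither motif contains the other. The Dkk1 window held 4 matches to CTTTG and 1 to TATAAA, and Wif1 held 1 of each. The windows of Sfrp2, Sfrp5 and Sost held neither. A match describes letters only and was not tested as a binding site.

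Of the 10 antagonist genes, 8 had at least 1 read and 5 reached an RPKM of 1 or more in either library. These were Dkk3, Sfrp4 and Frzb, which were higher in supportive ISEMFs, and Dkk2 and Sfrp1, which were lower. The supportive library thus held more transcript of a divergent Dkk and of 2 Frizzled-related proteins, and less of the LRP-binding Dkk2 and of Sfrp1. The other 5 genes (Dkk1, Sfrp2, Sfrp5, Wif1 and Sost) stayed under an RPKM of 0.1 in both libraries. In cultures sequenced in bulk, fewer cells that express a gene and less RNA per cell cannot be told apart.

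**Figure D1:**
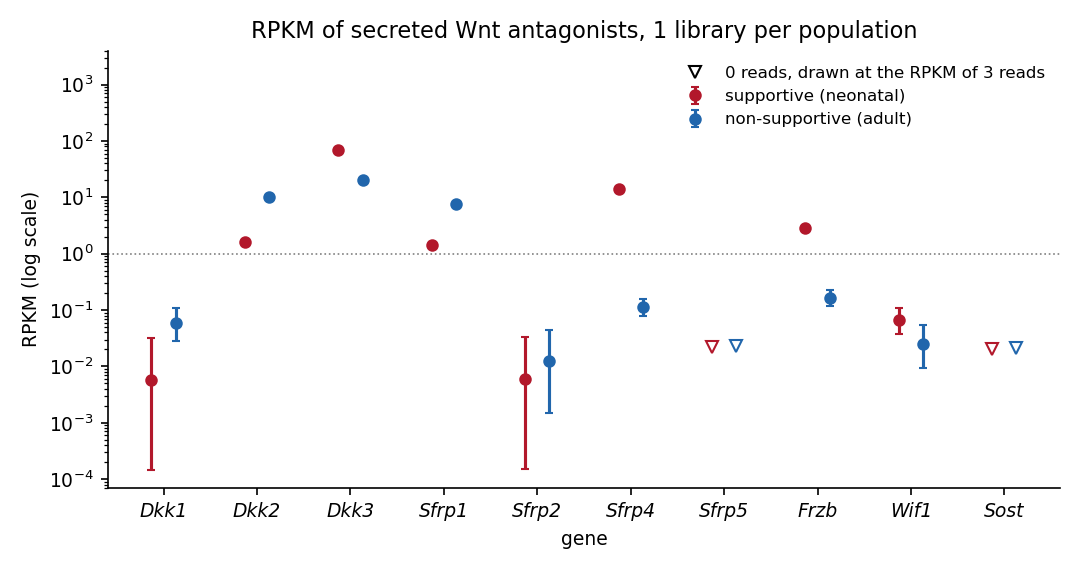
RPKM of each antagonist gene (log scale) in the supportive and non-supportive ISEMF library, with 95% exact Poisson intervals of the reads as bars open triangles at the level of 3 reads for genes with no read, and the dotted line at an RPKM of 1. Dkk3 is the highest point in both libraries, Dkk2 and Sfrp1 are higher in the non-supportive library, and Sfrp4 and Frzb lie above the line in the supportive library only.

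A 2-fold difference in RPKM, computed with a pseudocount of 0.1, was found for all 5 of the genes that reached an RPKM of 1, with 3 higher and 2 lower in supportive ISEMFs. Over all genes with that minimum, 18.3% of 10086 passed the same fold (9.01% higher and 9.27% lower). Sfrp4 and Frzb reached the minimum in the supportive library alone, so their passing it already implied a difference, while Dkk2, Dkk3 and Sfrp1 reached it in both libraries. With no minimum the count was 5 of the 10 antagonist genes, against 9.81% of 37309 genes, and with a mean RPKM of 1 or more the background was 16.3%. The log2 ratios of the 5 detected genes ran from -2.57 to 6.07. Their median of 1.76 is the value of Dkk3 alone and, with 3 genes higher and 2 lower, shows no shift of the family. The median over the 9110 protein-coding genes with the same minimum was -0.07. The median over all 10, of which 2 had no read, was 0.

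Dkk3 spans bases 119259533 to 119302571 of chromosome 7 in mm9, on the minus strand, in 8 exon blocks. It was the most abundant antagonist in both libraries, at rank 225 of the 22379 protein-coding genes in supportive and rank 1277 in non-supportive ISEMFs. Its 16508 and 4706 reads gave RPKM values of 68.8 and 20.2. Supportive ISEMFs thus had a 3.41-fold higher RPKM of Dkk3 (95% exact counting interval, 3.30 to 3.52). Of the 5 detected antagonists it showed the smallest difference and the only one under 4-fold. By level in both libraries, the protein-coding genes nearest to it were Mmp2, Snai2 and Rasl11b, at distances of 0.16, 0.22 and 0.24 on the log2(RPKM + 0.1) scale. That likeness rests on 2 libraries.

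Dkk2 spans bases 131748256 to 131843257 of chromosome 3, plus strand, where 4 exon blocks spread over 95002 bases. Dkk2 is known as a ligand of LRP6 that can inhibit or, without Kremen, activate Wnt signaling. The supportive library held 429 reads of it, at an RPKM of 1.63, and the non-supportive library 2603, at an RPKM of 10.1. The RPKM was 6.24-fold lower in the supportive library (interval, 5.64 to 6.93). Dkk2 and Dkk3 thus differed in opposite directions, and the RPKM of Dkk3 was above that of Dkk2 in each library.

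Dkk1, the best-known inhibitor of the family and itself a Wnt target gene, was close to absent. The gene spans bases 30620353 to 30624155 of chromosome 19, minus strand. It had 1 read in supportive and 10 in non-supportive ISEMFs, for RPKM values of 0.00577 and 0.0593. The ratio of 10.3 in favor of the non-supportive library had an interval of 1.46 to 447. The interval still excluded a ratio of 1, but with 11 reads in all its size is poorly fixed, and it included 1 at a confidence of 99%.

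Sfrp4 showed the largest difference among the antagonists. It spans bases 19714973 to 19724863 of chromosome 13, plus strand, in 5 exon blocks. The supportive library held 4817 reads of it and the non-supportive library 37, for RPKM values of 14.2 and 0.112. The RPKM was 127-fold higher in supportive ISEMFs (interval, 91.7 to 179.9). Its log2 ratio of 6.07 was the 9th highest of the 9110 protein-coding genes that reached an RPKM of 1. That value depends on the pseudocount, and it was 3.77 with a pseudocount of 1 and 6.97 with 0.001.

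Frzb, which encodes the Frizzled-related protein also called sFRP3, went the same way at a lower level. It spans bases 80252127 to 80287782 of chromosome 2, minus strand, in 6 exon blocks. It had 751 reads in supportive and 42 in non-supportive ISEMFs, for RPKM values of 2.88 and 0.166. The RPKM was 17.4-fold higher in the supportive library (interval, 12.7 to 24.3), a log2 ratio of 3.49 at rank 86 from the highest. With a pseudocount of 1 the log2 ratio was 1.74.

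Sfrp1, by contrast, was lower in supportive ISEMFs. It spans bases 24521974 to 24560104 of chromosome 8, plus strand, in 3 exon blocks. Its 452 and 2287 reads gave RPKM values of 1.45 in supportive and 7.53 in non-supportive ISEMFs, a 5.21-fold lower value in the supportive library (interval, 4.70 to 5.77). The size was close to that of Dkk2, and the intervals of the 2 genes overlapped. Counted from the lowest log2 ratio of the 9110 genes, Dkk2 was at rank 212 and Sfrp1 at rank 243. The Frizzled-related gene with the highest RPKM was thus Sfrp4 in supportive ISEMFs and Sfrp1 in non-supportive ISEMFs.

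**Figure D2:**
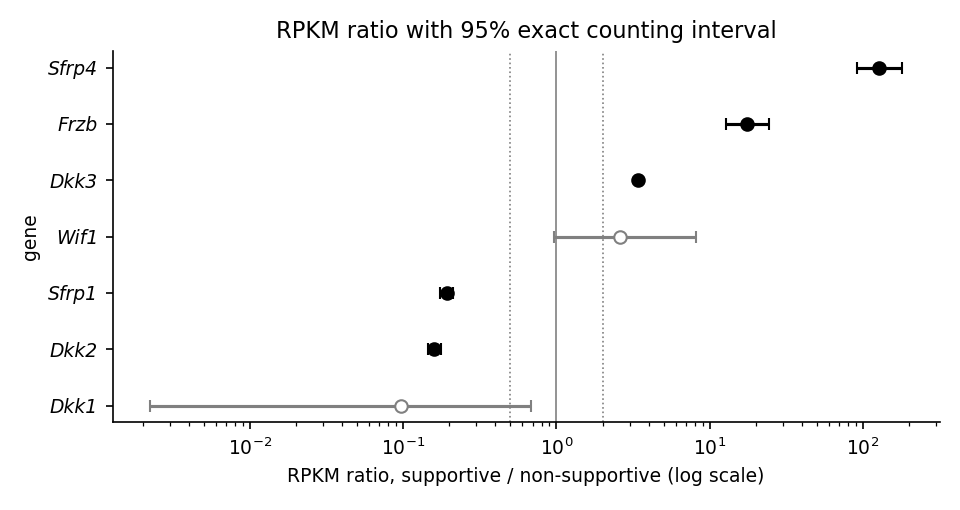
RPKM ratio of supportive over non-supportive ISEMFs (log scale) for the 7 antagonist genes with more than 3 reads in either library, with 95% exact counting intervals. Filled points are genes with an RPKM of 1 or more in either library, the solid line marks a ratio of 1 and the dotted lines a 2-fold difference; Sfrp4, Frzb, Dkk3 and Wif1 lie to the right of both 2-fold lines and Sfrp1, Dkk2 and Dkk1 to the left, and the interval of Wif1 includes a ratio of 1.

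The remaining Frizzled-related genes gave almost no reads. Sfrp2 spans bases 83570243 to 83578238 of chromosome 3, plus strand, and had 1 and 2 reads in the supportive and non-supportive libraries, too few for a ratio. It is the only one of the 10 genes that overlaps another annotated gene, the antisense lincRNA Gm16790, and whether the counting used strand is not given in the sources used here. Sfrp5 spans bases 42272461 to 42276742 of chromosome 19, minus strand, and had no read. A level below that of 3 reads, which is an RPKM of 0.0221 for supportive and 0.0227 for non-supportive ISEMFs, was not detectable at this depth.

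Wif1 spans bases 120471016 to 120537706 of chromosome 10, plus strand. It had 16 reads in supportive and 6 in non-supportive ISEMFs, with an RPKM of 0.0658 against 0.0254. The ratio of 2.59 had an interval of 0.963 to 8.09, so a difference was not detectable at this depth, although the interval excluded 1 with TMM scaling or with mitochondrial reads left out. Sost, best known from bone, spans bases 101823772 to 101828329 of chromosome 11, minus strand. It had no read, and 3 reads of it would be RPKM values of 0.0203 and 0.0209. By counting error alone, the intervals of Dkk3, Sfrp4 and Frzb lay above and those of Dkk1, Dkk2 and Sfrp1 below a ratio of 1. This makes 6 of the 8 antagonists with a read, where 55.4% of the 21596 genes with a read were called in the same way (25.6% higher and 29.8% lower).

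The sum over the 10 genes was an RPKM of 89.0 ± 0.59 (counting standard error) in supportive and 38.2 ± 0.39 in non-supportive ISEMFs, a 2.33-fold higher sum (95% interval, 2.27 to 2.38). Dkk3 made 77.3% of the sum in supportive and 52.8% in non-supportive ISEMFs. Sfrp4 made 15.9% and 0.293%, Dkk2 made 1.83% and 26.5%, and Sfrp1 made 1.63% and 19.7%. Without Dkk3, the other 9 genes summed to 20.2 ± 0.25 and 18.1 ± 0.26, a ratio of 1.12 (interval, 1.08 to 1.16). The antagonists other than Dkk3 thus had nearly the same summed level in both libraries with a different make-up. Sfrp4 and Frzb together summed to 17.1 in supportive and 0.278 in non-supportive ISEMFs, and Dkk2 and Sfrp1 together to 3.07 and 17.7. The 5 Frizzled-related genes summed to 18.5 in supportive and 7.82 in non-supportive ISEMFs. Dkk1 and Dkk2, whose products bind LRP5 and LRP6 as sclerostin does, summed to 1.63 and 10.2, and Sost had no read.

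**Figure D3:**
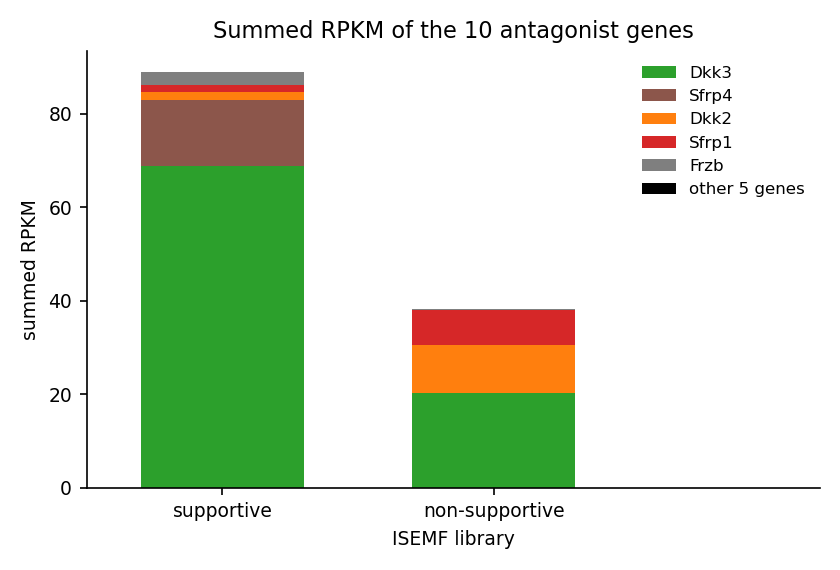
Summed RPKM of the 10 antagonist genes in each ISEMF library, stacked by gene. The sum is 89.0 for supportive and 38.2 for non-supportive ISEMFs, Dkk3 is the largest block in both, and the rest is mainly Sfrp4 in the supportive and Dkk2 with Sfrp1 in the non-supportive library.

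All 10 antagonists carry a secretory annotation by similarity in the deposited table, while its prediction column calls only 4 of them secretory and places Dkk1 in the nucleus and Sfrp2 in the mitochondrion. Coding sequences were aligned only between genes of the same family. Identity was counted over the aligned bases only, with gaps left out. On that measure the Dkk genes were 66.5% to 68.2% identical in pairs and the Frizzled-related genes 62.8% to 70.7%. The share of the longer coding sequence that aligned was 89.4% for Dkk1 with Dkk2. It was 70.8% for Dkk1 with Dkk3 and 70.3% for Dkk2 with Dkk3, so these identities leave out more of Dkk3. Dkk2 and Dkk3 were 66.5% identical, Dkk1 and Dkk2 66.8%, and Dkk1 and Dkk3 68.2%. Sfrp4 and Frzb were 70.7% identical, and so were Sfrp1 and Sfrp5. Whether identity goes with the direction of the difference was not tested. Words of 50 bases, the length of a read, were taken from the longest protein-coding transcript of each gene. For each gene, at most 1.05% of them occurred without mismatch in a protein-coding transcript of another gene. The share was 0 for Dkk3, Sfrp2, Sfrp5, Frzb, Wif1 and Sost. Noncoding transcripts and matches with mismatches were not searched.

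The proteins on which the antagonists act were compared next. Of the 4 receptors of Dkk proteins, 3 had an RPKM of 1 or more and 0 reached a 2-fold difference. Lrp6 was at an RPKM of 26.9 in supportive and 16.8 in non-supportive ISEMFs, a ratio of 1.60 (interval, 1.57 to 1.64). Lrp5 was at 2.16 and 3.13, and Kremen1 at 1.47 and 0.910. Kremen2 had no read in either library. The transcripts of Lrp5, Lrp6 and Kremen1 were thus present in both libraries, at ratios closer to 1 than those of Dkk2 and Dkk3.

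Of the 10 Frizzled genes, which encode the receptors that compete with the Frizzled-related proteins for Wnt, 8 had an RPKM of 1 or more. In supportive ISEMFs, 6 were at least 2-fold higher (Fzd1, Fzd2, Fzd4, Fzd5, Fzd6 and Fzd8) and 2 lower (Fzd3 and Fzd7). Over all genes with that minimum, 18.3% passed the same fold. Fzd1 was at 79.8 against 5.32, a 15.0-fold difference (interval, 14.3 to 15.8). Fzd7 was the most abundant in non-supportive ISEMFs, with an RPKM of 128 there and 57.0 in supportive ISEMFs. With a pseudocount of 1, the log2 ratios of Fzd6 and Fzd8 were 0.82 and 0.65, under a 2-fold difference.

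Among the 19 Wnt ligands, which are bound by the Frizzled-related proteins and WIF1, Wnt5a was the only gene with an RPKM of 1 or more. Wnt5a, a ligand known mainly for signaling without β-catenin, was at 0.983 in supportive and 17.0 in non-supportive ISEMFs, 17.3-fold lower (interval, 16.1 to 18.5). The summed RPKM of the 19 ligands was 1.77 and 18.1, of which Wnt5a made 55.4% and 93.7%. The summed antagonists were 50.2 ± 1.77 times the summed ligands for supportive and 2.11 ± 0.028 times for non-supportive ISEMFs (counting standard errors). The excess over the ligands rested on Dkk3 in the non-supportive library. Without Dkk3 the antagonists were 11.4 ± 0.42 times the ligands for supportive and 0.997 ± 0.017 times for non-supportive ISEMFs, where the sums were thus level within counting error.

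Of 12 other extracellular Wnt inhibitors, 10 were in the table under these symbols and 3 had an RPKM of 1 or more. Igfbp4, an insulin-like growth factor binding protein that also inhibits Wnt signaling, was at 35.0 in supportive and 6.74 in non-supportive ISEMFs, 5.19-fold higher (interval, 4.93 to 5.47). The membrane-bound inhibitor Apcdd1 was at 0.274 and 1.35, 4.94-fold lower, with a log2 ratio of -0.88 at a pseudocount of 1. Tpbg was at 4.83 and 9.93, or 2.06-fold lower, and lay under a 2-fold difference with a pseudocount of 1 and under each other scaling. Dkk4, the fourth Dkk gene, had 2 reads in supportive and 0 in non-supportive ISEMFs.

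**Figure D4:**
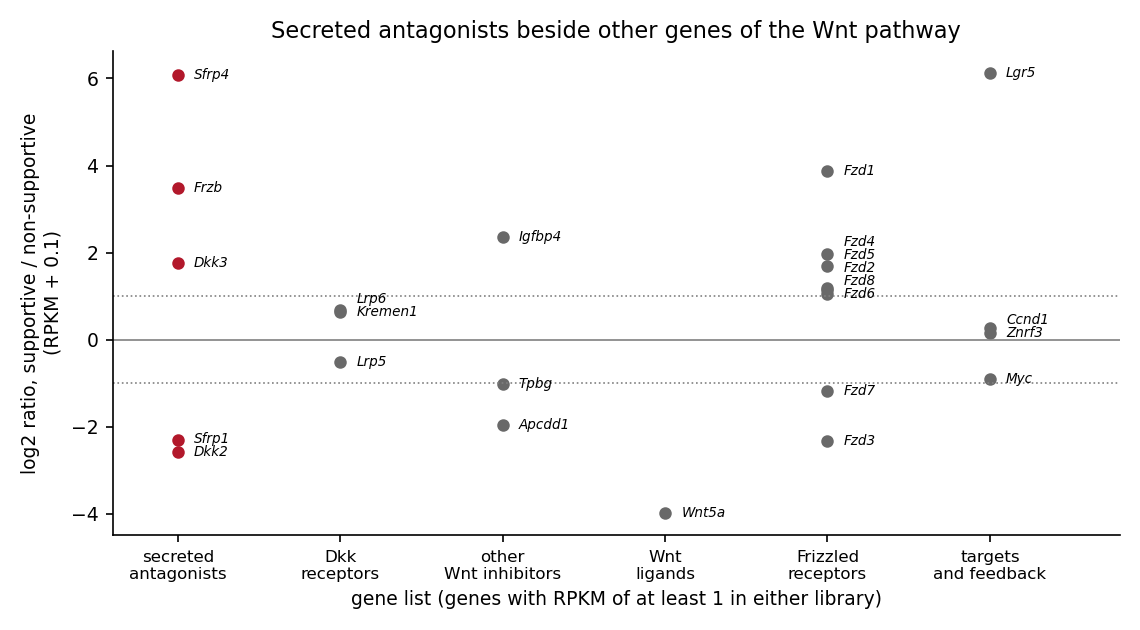
Log2 ratio of RPKM + 0.1, supportive over non-supportive ISEMFs, for the genes of each list with an RPKM of 1 or more in either library; each point is a gene, red for the secreted antagonists, and dotted lines mark a 2-fold difference. The antagonists run from -2.57 for Dkk2 to 6.07 for Sfrp4, the Dkk receptors stay between the dotted lines, and Wnt5a is the lowest point.

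Markers of other cells also differed between the libraries. In the non-supportive library, where Dkk2 and Sfrp1 were higher, all 6 macrophage markers were higher as well, with Lyz2 at an RPKM of 72.7 against 6.31. Of the 6 smooth muscle markers, 4 were higher there, and the list summed to 593 against 358. The exceptions were Myocd, a co-activator of smooth muscle genes, at 0.0409 in the non-supportive and 0.635 in the supportive library, and Smtn at 3.16 and 4.88. Of the 6 epithelial markers, 5 were higher there, but only Krt20 reached an RPKM of 1, at 3.13 against 0.0799. It made most of the list's sum of 3.47 against 0.530. Vil1 had 8 reads against 7, Epcam 5 against 0, Krt8 4 against 0 and Krt18 19 against 0. Cdh1, the exception, was at 0.0497 against 0.427. Of the 3 markers of interstitial cells of Cajal, 2 were higher there, with Ano1 at 1.94 against 0.0225, while Kit had 6 reads against 0. In the supportive library, where Dkk3, Sfrp4 and Frzb were higher, 2 of the 5 neuron and glia markers were higher and 2 lower. Their sum was 12.6 against 6.79, and the excess lay in S100b, at 6.69 against 0.116. Uchl1 went the other way, at 5.87 against 6.60, and so did Elavl4, with 4 reads against 23. Sox10 had no read in either library. The endothelial and mesothelial lists summed to an RPKM under 1 in each library. The part of these cells in the antagonist differences was not tested.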

How the data were processed

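The authors sequenced single-end reads of 50 bases, aligned them to mm9 with TopHat (TopHat2 2.0.4 in the submitters' processing notes) using Ensembl genes, kept unique hits and counted reads per gene with HTSeq 0.5.4p3. The counts they deposited are raw, in whole reads. The deposited RPKM values are these counts divided by exon length and library size. The table also holds the authors' own comparison (a log2 ratio and DESeq p-values), which was not used. A shorter deposited table of 209 Wnt pathway genes holds 4 of the 10 antagonists, with the same values.

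Libraries were taken by population name in the labels. Log2 ratios used RPKM with a pseudocount of 0.1. Ratio intervals are 95% Clopper-Pearson limits on each gene's fraction of supportive reads, scaled by the library sizes behind the RPKM values, and the question of whether an interval excludes 1 used the totals of reads on genes. With 1 library per population, edgeR's quasi-likelihood test and DESeq2 have no residual degrees of freedom, so no test was made. Alternatives were other pseudocounts, minima, folds and scalings, with TMM factors from edgeR 4.0.16. All 10 antagonists are named. Genes of the pathway lists are named where they reached an RPKM of 1 and a 2-fold difference, or bind Dkk proteins. Dkk4 and the Wnt target genes other than Lgr5 fall outside this rule and were named after their values were seen. The antagonists and lists were chosen with earlier results of these data known. The 3 nearest genes to the most abundant antagonist were found by Euclidean distance in log2(RPKM + 0.1). Coordinates in mm9 and exon blocks are from GENCODE vM1, where all 37309 genes lie on the same chromosome as in the table and 6 of the 10 antagonists have the same exon length. Promoters are from RefSeq, GRCm38.p6. The counting intervals and the 2-fold call were tried on simulated counts of well-covered genes, with counting error only. Variation between cultures, genes with few reads, sums and the sequence steps were not part of that trial. Python 3.11.15, scipy 1.17.1 and Biopython 1.88 were used.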

Additional observations from a re-analysis of the deposited data

How the results depend on the processing

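Dkk2, Dkk3, Sfrp1, Sfrp4 and Frzb kept their direction and a 2-fold difference under pseudocounts of 1 and 0.001, a median log2 ratio set to 0, TMM factors and mitochondrial reads left out. With a pseudocount of 1 the log2 ratios were -2.09 for Dkk2, -1.80 for Sfrp1, 3.77 for Sfrp4 and 1.74 for Frzb, and with 0.001 they were 6.97 for Sfrp4 and 4.11 for Frzb. That of Dkk3 was 1.83 with the median set to 0, 1.82 with TMM factors and 1.84 without mitochondrial reads. The count of antagonists with a 2-fold difference was 4 of 4 at a minimum RPKM of 5 (against 17.3% of 5061 genes). Only Dkk3 reached that minimum in both libraries. Dkk2 and Sfrp1 reached it in the non-supportive library alone and Sfrp4 in the supportive library alone, so the minimum itself favored a difference in these genes. At a 4-fold threshold, 4 of 5 passed (against 6.53% of 10086 genes). The count was 5 otherwise, with 11.9% of 10086 genes passing at a pseudocount of 1. It was also 5 with a mean RPKM of at least 1, an alternative chosen after seeing the data (against 16.3% of 9493 genes). The count whose interval excluded 1 was 5 of 8 at 99% (49.2% of all genes with a read), 7 of 8 with TMM factors (55.1%) or without mitochondrial reads (55.5%), and 6 of 7 with at least 10 reads (71.1% of such genes). The ratio of the summed RPKM was 1.12 without Dkk3. Over all genes, 2-fold differences numbered 1199 with a pseudocount of 1, 878 at a minimum of 5 and 3660 without a minimum (9.81% of 37309). At 4-fold they numbered 659, against 1844 in the main setting (18.3% of 10086). Over the pathway lists, 13 of the 19 genes with the minimum RPKM passed 2-fold and 5 of the 19 passed 4-fold. No paired analysis was possible because each population has 1 library. Differences in genes with few reads, such as Dkk1, Sfrp2 and Wif1, are limited by depth.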

Other observations

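Wnt target and feedback genes respond to the signal that the antagonists limit. Of the 11 genes of this list, 4 had an RPKM of at least 1 and only Lgr5 reached a 2-fold difference. Over all genes with that minimum, 18.3% of 10086 passed the same fold. Lgr5 reached the minimum in the supportive library alone, so its passing it already implied a difference. Lgr5, the R-spondin receptor that marks intestinal stem cells, had 6702 reads and an RPKM of 7.22 in supportive ISEMFs against 4 reads and 0.00443, a ratio of 1628 (95% exact counting interval, 636 to 5978). Its log2 ratio was 6.13 and that of Sfrp4 was 6.07, but this closeness depends on the pseudocount. With a pseudocount of 1 the log2 ratios were 3.03 for Lgr5 and 3.77 for Sfrp4. With 0.001 they were 10.4 for Lgr5 and 6.97 for Sfrp4. Axin2, a feedback inhibitor induced by Wnt signaling in many tissues, had 7 and 3 reads, Sp5 had no read, and Ccnd1 was at an RPKM of 175 and 146. Myc was at 2.76 in supportive and 5.21 in non-supportive ISEMFs, and Znrf3 at 2.07 and 1.85. Under an RPKM of 1, Nkd1 had 182 and 13 reads, while its paralog Nkd2 went the other way with 97 and 271. Tcf7 had 116 reads in supportive and 59 in non-supportive ISEMFs. Lef1 had 163 and 293 reads, and Rnf43 had 12 and 54.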
